A study of Mus musculus with 8 samples.

Results

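The genes described here encode the machinery that carries newly made proteins into the endoplasmic reticulum (ER) and folds them there. A list of 50 such genes was taken, and a gene was kept where its symbol had a row in the deposited table with 30 or more unique molecular identifiers (UMIs, tags that count single mRNA molecules) summed over the 8 libraries. Of the 50 genes, 47 had a row and 46 passed the minimum, out of 12661 genes that passed it in all. Spcs2, an accessory subunit of signal peptidase, had 25 UMIs and was not tested, and Rpn1, Srp54a and Ern1 were not analysed here.

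The libraries are 3′ mRNA counts (bulk MARS-seq) of mouse lung epithelial cells, sorted as EpCam+ CD31- CD45-, with 10000 cells each. The LPS group (3 libraries) came from C57BL6 mice that inhaled aerosolized PBS with Escherichia coli LPS, a bacterial cell wall component that inflames the lung, at 0.5 mg/ml for 30 min, 3 times a week over 10 weeks. The PBS group (5 libraries) came from C57BL6 mice that inhaled PBS alone on the same schedule. The study used female mice and counts as many mice as there are libraries in each group. Its methods give a young and an old age class for all experiments, and which of them these mice belonged to was not found. The libraries are called here by their column names, s4, s14 and s18 for LPS and s1, s2, s6, s11 and s16 for PBS.

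Many secreted and membrane proteins start with a signal peptide that the signal recognition particle (SRP) catches as it leaves the ribosome. SRP docks the ribosome at its receptor on the ER, and the chain is threaded through the Sec61 channel, helped by the translocon-associated protein (TRAP) complex. Inside, signal peptidase removes the signal peptide, oligosaccharyltransferase adds sugar chains to asparagines, and chaperones and disulfide isomerases fold the protein. When unfolded protein builds up, the sensors IRE1, PERK and ATF6 start the unfolded protein response, which raises the transcription of chaperones. In the lung, alveolar type II cells make surfactant proteins along this route.

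Many chaperone genes carry the ER stress element (ERSE) before their start, a site at which ATF6 and the general factor NF-Y are known to bind. The RefSeq promoter table (GRCm38.p6, 250 bases before to 50 after each start) held 40 of the 50 members, 36 of them tested. Sec61a1, Tram1, Ssr2, Srp19, Srp68, Spcs3, Sec11c, Ostc, Manf and Atf6 had no entry. The ERSE letters, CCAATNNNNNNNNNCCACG, were searched on both strands. They were found in 7 of the 36 tested members (19.4%). The shares were 0.159% of the 10081 tested genes with an entry and 0.137% of all 27025 genes in the table, both with the members counted in. All 7 are chaperones, foldases or their partners, a class named above as carrying ERSE, so the high share was given beforehand. Their windows are shown because they mark which members carry the usual ER stress letters, with the match in capitals and 20 bases on each side, read along the gene's strand. A match on the opposite strand reads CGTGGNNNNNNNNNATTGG, as in Calr, Creld2 and the second window of Hsp90b1.
Hspa5, chr2:34772005-34772063, plus strand: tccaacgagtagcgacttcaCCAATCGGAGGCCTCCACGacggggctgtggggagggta
Hsp90b1, chr10:86705618-86705676, minus strand: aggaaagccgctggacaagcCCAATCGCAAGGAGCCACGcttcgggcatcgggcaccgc
Hsp90b1, chr10:86705513-86705571, minus strand: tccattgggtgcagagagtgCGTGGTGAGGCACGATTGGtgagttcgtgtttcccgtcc
Calr, chr8:84847055-84847113, minus strand: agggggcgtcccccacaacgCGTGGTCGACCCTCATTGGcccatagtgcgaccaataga
Canx, chr11:50325780-50325838, minus strand: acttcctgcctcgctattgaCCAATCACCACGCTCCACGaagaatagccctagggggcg
Pdia6, chr12:17266471-17266529, plus strand: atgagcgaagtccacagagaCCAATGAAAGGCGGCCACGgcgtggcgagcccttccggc
Dnajc3, chr14:118937807-118937865, plus strand: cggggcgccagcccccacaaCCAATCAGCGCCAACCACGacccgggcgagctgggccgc
Creld2, chr15:88819500-88819558, plus strand: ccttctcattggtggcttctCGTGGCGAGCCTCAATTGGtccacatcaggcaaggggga
Herpud1, an ER membrane protein used in the degradation of misfolded proteins, carried the related ERSE-II letters, ATTGGNCCACG, which end in the same CCACG as ERSE. ERSE-II was present in 2.78% of the tested members, 0.0794% of the tested genes and 0.0444% of all genes in the table, and its match is in capitals.
Herpud1, chr8:94386357-94386407, plus strand: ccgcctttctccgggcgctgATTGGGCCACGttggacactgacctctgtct
The XBP1 site TGACGTGG, whose opposite strand also begins with CCACG, was in 0 of the 36 members (1.01% of tested genes, 0.714% of all genes in the table). The ATF4 site TGATGNAA was in Herpud1 alone (2.78% of members, 2.74% of tested genes, 4.51% of all genes). These matches describe letters in a window of fixed length and are not evidence of binding.

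Library totals were 2739340 to 4445431 UMIs in LPS and 2232727 to 2890560 UMIs in PBS libraries, which overlap (exact permutation test over 56 splits, two-sided p = 0.0536, smallest possible p = 0.0179). At this depth 3 UMIs are worth 0.675 to 1.34 CPM, counts scaled to the total of each library. The CPM of genes given below were also scaled by a TMM factor per library (0.874 to 1.07), so they do not add up to the same total. The sorted gene Epcam was present throughout, at 107, 108 and 137 CPM in the LPS libraries, against 148, 135, 107, 107 and 113 CPM in the PBS libraries. Markers of alveolar type II cells, 10 genes led by the surfactant gene Sftpc, summed to 103773, 111312 and 107968 CPM in the LPS libraries, against 123284, 123560, 165467, 177435 and 178505 CPM in the PBS libraries. In this sum every LPS library lay below every PBS library, and PBS s1 and s2 lay apart from s6, s11 and s16. Most of it was Sftpc, with means of 69347 of 107684 CPM in LPS and 101456 of 153650 CPM in PBS libraries. Of the 10 genes, 9 were below 0 (median log2 fold change -0.32), and 3 had every LPS library below every PBS library. EdgeR and limma-voom called 0 and DESeq2 1 lower, with 2 lower at an unadjusted p under 0.05. The 7 club cell markers summed to 10648, 16883 and 25570 CPM in the LPS libraries, against 9132, 6719, 7991, 12481 and 46710 CPM in the PBS libraries. The 8 tested goblet cell markers summed to 1110, 1293 and 2323 CPM in LPS, against 954, 626, 301, 744 and 2907 CPM in PBS libraries. PBS s16 was the highest library in both sums. EdgeR, DESeq2 and limma-voom called 0 genes of either list. The 12 ciliated cell markers summed to 6318 to 7200 CPM in LPS and 1627 to 4867 CPM in PBS libraries, without overlap. All 12 were above 0, with 7 higher at an unadjusted p under 0.05, but edgeR and limma-voom called 0 and DESeq2 2. Of 19 tested macrophage markers 10 were called higher in LPS, in cells sorted as CD45-, while their sum, mostly Lyz2, which type II cells also express, was 22683 to 28880 CPM in LPS and 26309 to 43676 CPM in PBS libraries. The plasma cell markers (6 of 13 tested), genes of a cell type rich in ER, summed to 642 to 709 CPM in LPS and 583 to 830 CPM in PBS libraries. Of these 6, 3 were below 0 and 3 above, with a median log2 fold change of 0.36. At an unadjusted p under 0.05, 2 were higher and 0 lower, and 0 were called by edgeR, DESeq2 or limma-voom. The immunoglobulin genes of this list were not tested, and Derl3 also belongs to the degradation list below. The sum therefore says little about plasma cell content. The 9 tested fibroblast markers were all below 0, with a median log2 fold change of -0.69 and 0 called (2 lower at an unadjusted p under 0.05, and 0 in DESeq2 and in limma-voom), and summed to 85.4 to 363 CPM in LPS and 242 to 570 CPM in PBS libraries, which overlap. In bulk libraries a change in the mix of cells and a change in RNA per cell cannot be told apart, and the part of these markers in the results below was not tested.

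Transcripts of the ER members were counted somewhat less in LPS epithelium, with few single genes past the test. The gene test was edgeR's quasi-likelihood test with TMM scaling and Benjamini-Hochberg adjustment over all 12661 genes, and calls needed an adjusted p below 0.05 together with the minimum fold change of the study's methods. By it 1 of 46 members, the TRAP subunit Ssr2, fell and 0 rose, while 0.569% of all genes were called lower and 1.46% higher. At an unadjusted p under 0.05, 12 members were lower (26.1%) and 0 higher, against 7.64% and 10.4% of all genes. DESeq2, the tool that the study itself used, called 5 members lower (10.9%) and 0 higher at the same thresholds, against 1.51% and 2.91% of all genes. These 5 were Ssr2, Ssr1, Ostc, Spcs3 and Sec61b. Limma-voom called 1 lower and 0 higher, against 0.521% and 1.38% of all genes.

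Direction was more uniform than the calls. The log2 fold change, LPS over PBS, was below 0 for 39 of 46 members (84.8%), against 52.7% of all genes, and its median was -0.20 over the members and -0.02 over all genes. Scaled to library totals the median of all genes moved to 0.06 and that of the members to -0.11, with 32 of 46 members below 0 (69.6%, against 43.1% of all genes). Every LPS library lay below every PBS library for 9 members, 19.6% of the 46, against 5.86% of all genes. Every LPS library lay above every PBS library for 1 member, Rpn2, against 8.52% of all genes. With library totals the 9 became 7, without Srpr and Pdia6 (15.2%, against 3.96% of all genes), and Rpn2 no longer separated. The most thinly counted members were Stt3a with 33 UMIs in all, Sec61g with 48 and Sec62 with 100.

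**Figure D1:**
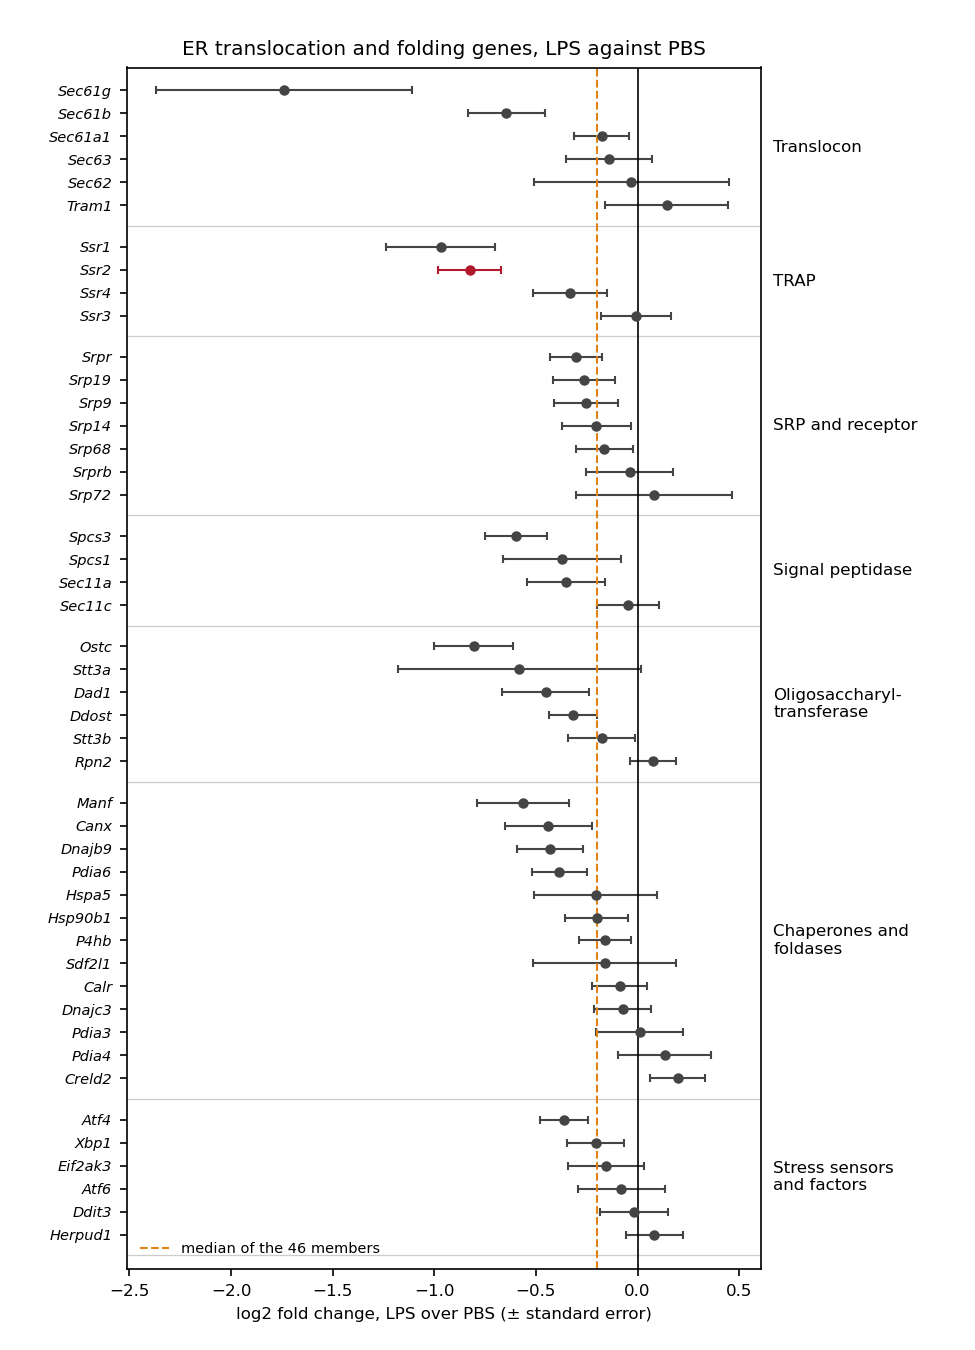
Log2 fold change, LPS over PBS, of the 46 tested members with its standard error (bars), grouped by role, with Ssr2, the 1 member called by edgeR, in red. The dashed line is the median of the members at -0.20, and 39 points lie to the left of 0.

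Summed over the 46 members, the level was 7281, 6628 and 7225 CPM in the LPS libraries, against 8003, 8058, 8371, 8493 and 8431 CPM in the PBS libraries. The LPS libraries were all below the PBS libraries, with means of 7044 ± 362 CPM in LPS and 8271 ± 225 CPM in PBS (SD, n = 3 and n = 5). As an unscaled share of all UMIs the members took 0.772, 0.691 and 0.731% in the LPS libraries, against 0.855, 0.864, 0.802, 0.789 and 0.736% in the PBS libraries, and here LPS s4 lay above PBS s16. When the 5 most abundant genes (Sftpc, Lyz2, Sftpb, Cbr2 and Scgb1a1) were left out of the totals, the share was 0.847 ± 0.0450% in LPS and 0.982 ± 0.0318% in PBS libraries, without overlap. Whether the groups separated thus depended on the denominator.

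**Figure D2:**
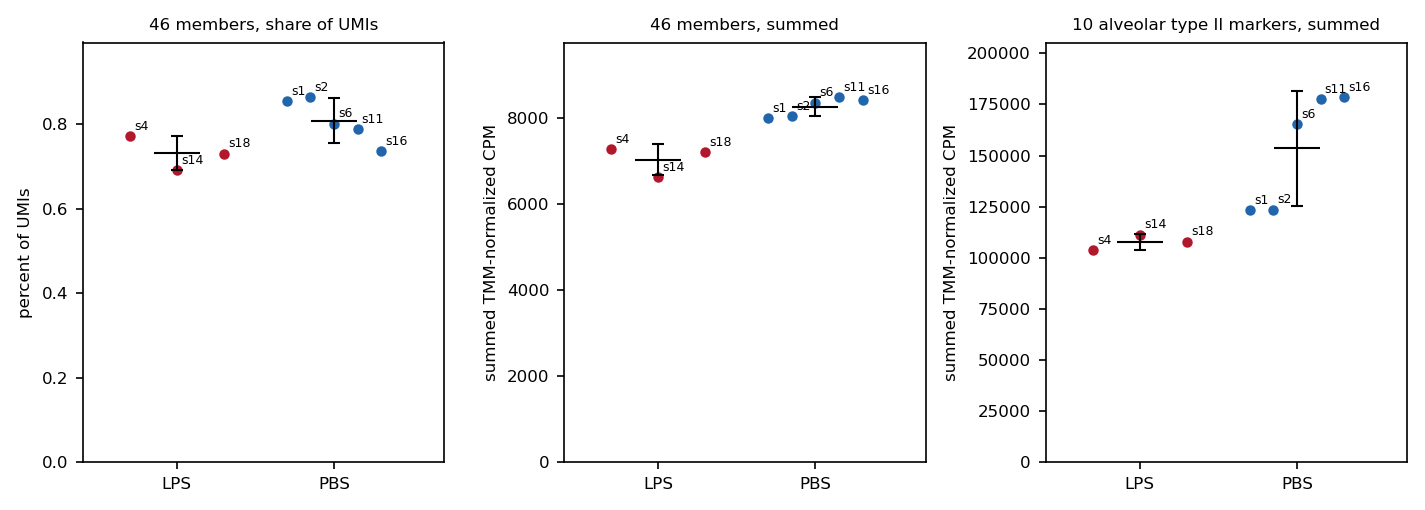
Each point is a library, LPS in red and PBS in blue, with the group mean and SD in black, for the members' share of UMIs (percent), their summed TMM-normalized CPM and the summed CPM of 10 alveolar type II markers. The share overlaps between the groups, while in both sums the LPS libraries lie below the PBS libraries, and PBS s1 and s2 have the lowest marker sums of their group.

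The TRAP complex sits beside the Sec61 channel and helps some signal peptides to open it. Its 4 subunits had a median log2 fold change of -0.58, and all 4 were below 0. Ssr2, the beta subunit (chr3:88579608-88588420, GRCm38), had 205, 173 and 199 CPM in the LPS libraries, against 281, 315, 319, 370.5 and 424 CPM in the PBS libraries. All LPS libraries were below all PBS libraries, and the lowest PBS library, s1, was still above the highest LPS library. The means were 193 ± 16.96 CPM in LPS and 342 ± 55.7 CPM in PBS libraries (SD, n = 3 and n = 5). Ssr2 fell by 0.83 on the log2 scale (SE 0.16, edgeR adjusted p = 0.0238), and 1.77-fold more was counted in PBS. DESeq2 gave an adjusted p of 0.000118 and limma-voom 0.0226. The call was lost when 1 of 4 libraries was left out. With edgeR the adjusted p was 0.0966 without LPS s4, 0.124 without LPS s14, 0.0986 without LPS s18 and 0.0684 without PBS s11, with log2 fold changes between -0.89 and -0.74 over all 8 such fits.

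Ssr1, the alpha subunit, had 20.4, 8.05 and 20.7 CPM in the LPS libraries, against 26.1, 30.96, 35.5, 33.3 and 38.01 CPM in the PBS libraries. Library s14 was the lowest of all, and no LPS library reached a PBS library. Its log2 fold change was -0.97 (SE 0.27, edgeR adjusted p = 0.0946), past the threshold in DESeq2 only (adjusted p = 0.0233). Ssr4, the delta subunit, had 153, 141 and 185 CPM in the LPS libraries, against 166, 161, 197, 217 and 268 CPM in the PBS libraries, groups that overlap, with a log2 fold change of -0.33 (SE 0.18, edgeR adjusted p = 0.365) that was -0.50 without PBS s1 and s2 and -0.015 without PBS s6, s11 and s16. Ssr3, the gamma subunit, had groups that overlap, with means of 79.8 ± 5.22 CPM in LPS and 80.1 ± 16.4 CPM in PBS libraries (SD, n = 3 and n = 5) and an interval of the log2 fold change (2 SE on each side) of -0.35 to 0.33. The summed TRAP level was 459, 397 and 490.2 CPM in the LPS libraries, against 564, 603, 637, 678 and 798 CPM in the PBS libraries, all LPS libraries below all PBS libraries.

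In the Sec61 channel the large pore-forming subunit and its small partners gave different values. Sec61b, a small tail-anchored subunit (chr4:47474661-47483233), had 183, 206 and 265 CPM in the LPS libraries, against 278, 269, 407, 410 and 341 CPM in the PBS libraries. The LPS libraries were below the PBS libraries, although LPS s18 came close to PBS s1 and s2. Its log2 fold change was -0.64 (SE 0.19, edgeR adjusted p = 0.107), and it passed in DESeq2 (adjusted p = 0.0456). In edgeR, in splits chosen after the data were seen, it was -0.82 without PBS s1 and s2 (adjusted p = 0.0228). It was -0.32 without PBS s6, s11 and s16 (adjusted p = 0.357). Sec61a1, the pore itself, had 153, 203 and 191 CPM in the LPS libraries, against 233, 199.6, 189.8, 204 and 202 CPM in the PBS libraries. The LPS values reached into the PBS range, and the log2 fold change of -0.18 (SE 0.14, edgeR adjusted p = 0.534) was -0.063 without LPS s4.

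Sec61g, the other small subunit, had 1.44, 0.350 and 0.667 CPM in the LPS libraries, against 2.09, 1.29, 1.99, 3.38 and 6.47 CPM in the PBS libraries. These values lie near the level of 3 UMIs, so its log2 fold change of -1.74 (SE 0.63, edgeR adjusted p = 0.173) is imprecise. The remaining 3 members of the group, the translocation partners Sec62, Sec63 and Tram1, lay between -0.14 and 0.14 on the log2 scale.

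SRP and its receptor bring ribosomes to the channel. Of the 7 tested genes 6 were below 0, with a median of -0.20, and 0 were called (1 at an unadjusted p under 0.05, and 0 in DESeq2 and in limma-voom). Srpr, the receptor's alpha subunit, had 48.5, 51.1 and 54.9 CPM in the LPS libraries, against 59.5, 69.99, 65.8, 56.4 and 66.3 CPM in the PBS libraries. Its LPS libraries were below the PBS libraries by a narrow margin, with a log2 fold change of -0.30 (SE 0.13, edgeR adjusted p = 0.234). Srp19, which helps to assemble the particle, had 78.1, 85.7 and 81.8 CPM in the LPS libraries, against 90.4, 85.5, 83.7, 110.5 and 122 CPM in the PBS libraries, and here LPS s14 lay above PBS s2 and s6. Its log2 fold change of -0.26 (SE 0.15, edgeR adjusted p = 0.388) was -0.18 without PBS s16. Srp9, which with Srp14 slows elongation of the chain, had 57.7, 48.99 and 62.5 CPM in the LPS libraries, against 59.1, 62.9, 86.9, 63.7 and 64.3 CPM in the PBS libraries. PBS s6 stood above its group for Srp9, and the log2 fold change of -0.25 (SE 0.16, edgeR adjusted p = 0.427) was -0.14 without that library and -0.16 without LPS s14. Srp14, Srp68, Srp72 and Srprb lay between -0.20 and 0.08. Srp72 varied 4.88-fold between its highest and lowest PBS library, more than 98.0% of the 6371 genes with 500 or more UMIs.

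Signal peptidase had 4 tested subunits, all below 0, with a median of -0.36. Spcs3, an accessory subunit that the enzyme needs (chr8:54520433-54529998), had 37.96, 31.8 and 47.6 CPM in the LPS libraries, against 59.5, 55.8, 56.2, 59.8 and 66.7 CPM in the PBS libraries. The highest LPS library, s18, was below the lowest PBS library, s2. Its log2 fold change was -0.60 (SE 0.15, edgeR adjusted p = 0.0717), and DESeq2 called it (adjusted p = 0.0274). Sec11a, a catalytic subunit, had 108, 63.3 and 101 CPM in the LPS libraries, against 107, 108, 99.3, 116 and 150 CPM in the PBS libraries, with LPS s14 low and the other LPS libraries inside the PBS range. The log2 fold change of Sec11a was -0.35 (SE 0.19, edgeR adjusted p = 0.363), and -0.15 without LPS s14. Spcs1, an accessory subunit, had 83.6, 90.6 and 92.5 CPM in the LPS libraries, against 79.3, 74.5, 85.3, 148 and 191 CPM in the PBS libraries. PBS s11 and s16 were high, s1 and s2 lay under all LPS libraries and s6 among them, and its log2 fold change of -0.37 (SE 0.29, edgeR adjusted p = 0.54) was -0.11 without PBS s16, -0.67 without PBS s1 and s2, and 0.22 without PBS s6, s11 and s16. Sec11c, the other catalytic subunit, had means of 199 ± 8.91 CPM in LPS and 205 ± 34.4 CPM in PBS libraries (SD, n = 3 and n = 5).

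Oligosaccharyltransferase exists in a form built on Stt3a, which works at the channel, and a form built on Stt3b. Its 6 tested genes had a median of -0.38, 5 of them below 0. Ostc, the subunit that ties the Stt3a form to the channel (chr3:130695917-130709444), had 104, 62.3 and 106 CPM in the LPS libraries, against 133, 139, 163, 169 and 192 CPM in the PBS libraries. LPS s14 was the lowest library, and all LPS libraries were below all PBS libraries. Ostc had means of 90.7 ± 24.6 CPM in LPS and 159 ± 23.8 CPM in PBS libraries (SD, n = 3 and n = 5) and a log2 fold change of -0.81 (SE 0.19, edgeR adjusted p = 0.0593). It was called by DESeq2 (adjusted p = 0.0071), and by edgeR without PBS s1 (adjusted p = 0.0467). In a split chosen after the data were seen, edgeR also called it without PBS s1 and s2 (adjusted p = 0.0279). It was not called by edgeR at -0.56 without PBS s6, s11 and s16 (adjusted p = 0.202) or at -0.60 without LPS s14 (adjusted p = 0.207).

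Ddost, a shared subunit, had 163, 142 and 164 CPM in the LPS libraries, against 199, 181, 195, 199 and 201 CPM in the PBS libraries, again with LPS below PBS in every library, and a log2 fold change of -0.32 (SE 0.12, edgeR adjusted p = 0.183). Dad1, a small shared subunit, had 420.2, 302 and 453 CPM in the LPS libraries, against 426, 419.6, 490, 616 and 732 CPM in the PBS libraries. LPS s4 and s18 fell inside the PBS range, and the log2 fold change of -0.45 (SE 0.21, edgeR adjusted p = 0.288) was -0.30 without LPS s14 and -0.097 without PBS s6, s11 and s16. Rpn2 ran the other way in its values, with 374, 376 and 365 CPM in the LPS libraries, against 353, 354, 363, 332 and 359 CPM in the PBS libraries. Its LPS libraries were above its PBS libraries, but the size was small, a log2 fold change of 0.08 (SE 0.11, edgeR adjusted p = 0.77). The catalytic Stt3b had a log2 fold change of -0.18 (SE 0.17, edgeR adjusted p = 0.62), and the thinly counted Stt3a ranged over 0.667 to 1.44 CPM in LPS and 0.482 to 3.23 CPM in PBS libraries.

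**Figure D3:**
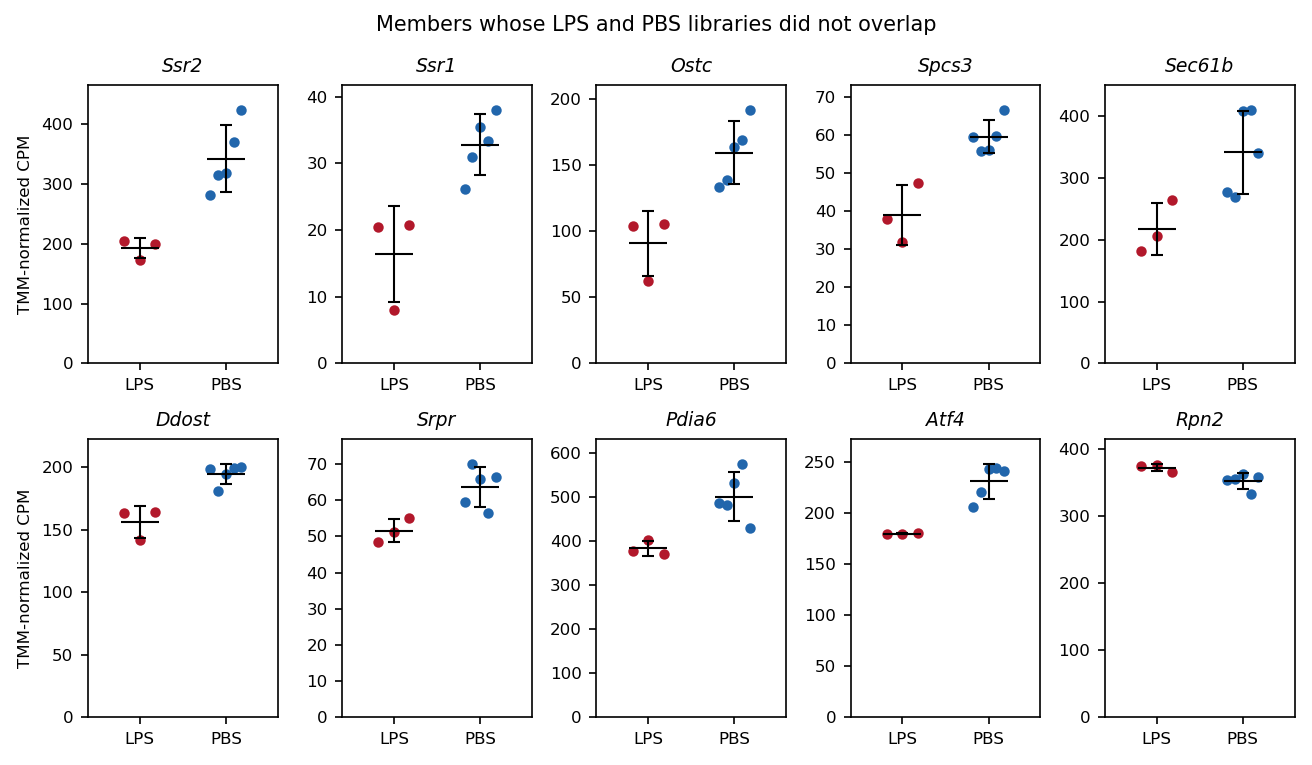
TMM-normalized CPM of the 10 members whose LPS (red, 3 points) and PBS (blue, 5 points) libraries did not overlap, with the group mean and SD in black and each axis starting at 0. The LPS points lie below the PBS points in 9 panels, as in Ssr2 (193 CPM in LPS and 342 CPM in PBS on average), and above them in Rpn2.

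Chaperones and foldases, 13 genes, had a median of -0.16, with 10 below 0 and 0 called (3 lower and 0 higher at an unadjusted p under 0.05, and 0 in DESeq2 and in limma-voom). Hspa5, the chaperone BiP and the standard readout of ER stress, had 248, 209 and 216 CPM in the LPS libraries, against 349.6, 356, 291, 177 and 120.1 CPM in the PBS libraries. The LPS libraries agreed closely with each other and lay in the middle of a wide PBS range, whose highest library was 2.96-fold above its lowest. The log2 fold change of -0.21 (SE 0.30, edgeR adjusted p = 0.772) therefore depended on the PBS libraries used. It was 0.19 without PBS s1 and s2 (edgeR adjusted p = 0.702) and -0.64 without PBS s6, s11 and s16 (edgeR adjusted p = 0.0375). Both splits were chosen after the data were seen, and s1 and s2 were the highest PBS libraries of Hspa5, so these p-values carry little weight.

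Canx, the membrane lectin chaperone calnexin, was split in the same way among PBS libraries, with 27.1, 25.9 and 26.2 CPM in the LPS libraries, against 44.5, 45.8, 34.7, 29.4 and 23.9 CPM in the PBS libraries, with PBS s1 and s2 highest. Its log2 fold change over all libraries was -0.44 (SE 0.21, edgeR adjusted p = 0.304). In the same splits, chosen after the data were seen, it was -0.15 without PBS s1 and s2 (edgeR adjusted p = 0.67). It was -0.76, past the threshold, without PBS s6, s11 and s16 (edgeR adjusted p = 0.0428). Calr, the soluble lectin chaperone calreticulin, had 699, 678 and 660.1 CPM in the LPS libraries, against 744, 749, 813, 693 and 606 CPM in the PBS libraries, with the LPS values inside the PBS range and a log2 fold change of -0.09 (SE 0.14, edgeR adjusted p = 0.788), between -0.14 and -0.041 without 1 library. Hsp90b1, the ER form of HSP90, had 436, 347 and 395 CPM in the LPS libraries, against 465, 486, 349, 437 and 519 CPM in the PBS libraries. The groups of Hsp90b1 overlapped, at a log2 fold change of -0.20 (SE 0.15, edgeR adjusted p = 0.535) that was -0.12 without LPS s14.

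Pdia6, a disulfide isomerase, was the 1 chaperone or foldase whose groups did not overlap, with 378, 402 and 369 CPM in the LPS libraries, against 485, 482, 531, 575 and 429 CPM in the PBS libraries. Its log2 fold change was -0.39 (SE 0.13, edgeR adjusted p = 0.16). Dnajb9, a BiP co-chaperone, had 51.2, 39.2 and 33.6 CPM in the LPS libraries, against 51.1, 64.5, 55.4, 56.4 and 50.5 CPM in the PBS libraries, where LPS s4 reached the PBS range, and a log2 fold change of -0.43 (SE 0.16, edgeR adjusted p = 0.189). Manf, a secreted BiP partner, had 171, 100.4 and 163 CPM in the LPS libraries, against 209, 189.6, 161, 206 and 306 CPM in the PBS libraries, with s14 lowest and PBS s16 highest, and a log2 fold change of -0.56 (SE 0.23, edgeR adjusted p = 0.215) that was -0.36 without LPS s14.

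Sdf2l1, a stress-induced partner of ER co-chaperones, had 9.61, 11.2 and 7.56 CPM in the LPS libraries, against 18.8, 11.3, 8.77, 5.31 and 7.28 CPM in the PBS libraries. PBS s1 was the highest library, and the log2 fold change of -0.16 (SE 0.35, edgeR adjusted p = 0.856) turned to 0.17 without it. Creld2, a stress-induced isomerase-like protein, had 118, 137 and 98.5 CPM in the LPS libraries, against 109.9, 101, 97.3, 107 and 98.3 CPM in the PBS libraries. The highest LPS libraries, s4 and s14, lay above the PBS libraries and s18 lay among them, with a log2 fold change of 0.20 (SE 0.13, edgeR adjusted p = 0.473) that was 0.076 without LPS s14 and 0.30 without LPS s18. The other 4 genes of the group, Pdia3, Pdia4, P4hb and Dnajc3, lay between -0.16 and 0.13.

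The 7 ERSE carriers had a median log2 fold change of -0.20, with 6 below 0 and 0 called, and the 29 other tested members with an entry also had a median of -0.20, with 24 below 0. Tested members without an entry, among them Ssr2, Ostc, Spcs3 and Manf, are in neither set, and ran from -0.83 (Ssr2) to 0.14 (Tram1). Values of the carriers ran from -0.44 (Canx) to 0.20 (Creld2).

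**Figure D4:**
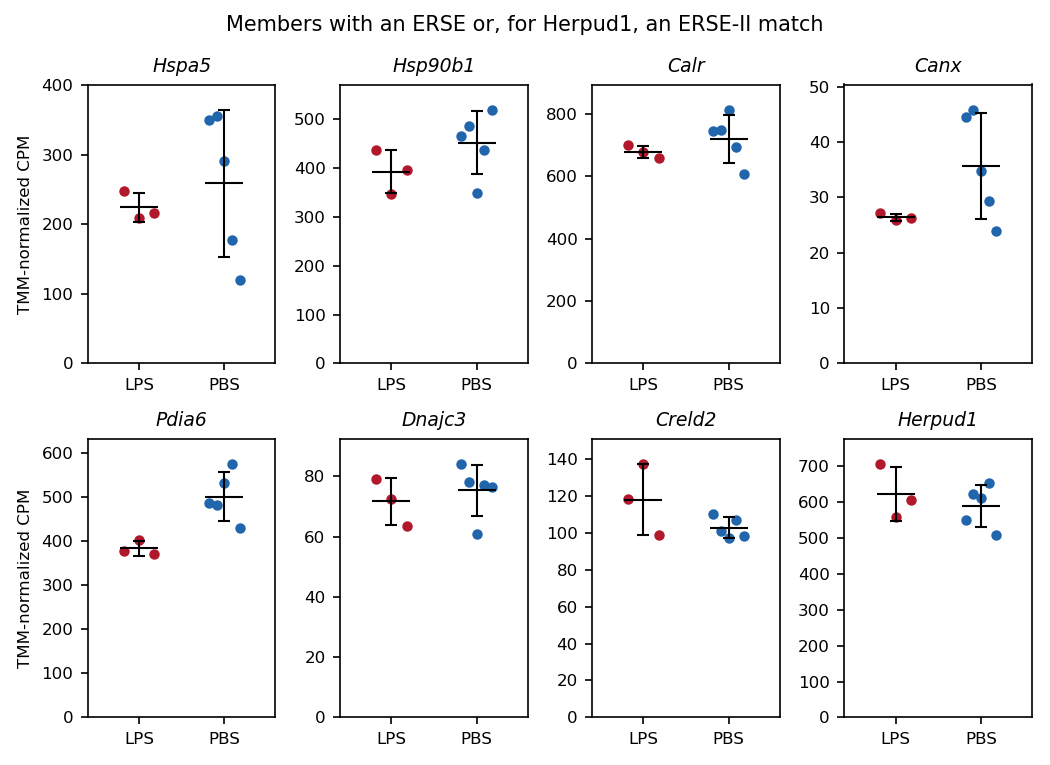
TMM-normalized CPM of the 7 members with an ERSE match and of Herpud1, which has an ERSE-II match, in LPS (red, 3 points) and PBS (blue, 5 points) libraries with mean and SD. The groups overlap in all panels but Pdia6, and the PBS libraries of Hspa5 run over 120 to 356 CPM.

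The stress sensors and factors gave a median of -0.12 over 6 tested genes, 5 of them below 0 and 0 called (1 lower at an unadjusted p under 0.05, and 0 in DESeq2 and in limma-voom). Atf4, the transcription factor made when PERK slows translation, had 179.7, 179.5 and 181 CPM in the LPS libraries, against 206, 221, 244, 245 and 241 CPM in the PBS libraries. The LPS libraries lay close together (SD 0.695 CPM) and were all below the PBS libraries, at a log2 fold change of -0.36 (SE 0.12, edgeR adjusted p = 0.141). Without PBS s6, s11 and s16 it was -0.24. Xbp1, the factor whose mRNA IRE1 splices, had 254, 216 and 221 CPM in the LPS libraries, against 272, 279, 292, 276 and 211 CPM in the PBS libraries. PBS s16 was low and lay under the LPS libraries, and the log2 fold change was -0.21 (SE 0.14, edgeR adjusted p = 0.472). Counts of the 3′ end do not tell spliced from unspliced Xbp1, and ATF4 and ATF6 are controlled largely after transcription.

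Atf6 had 34.4, 32.9 and 28.5 CPM in the LPS libraries, against 37.9, 26.8, 24.3, 31.8 and 47.7 CPM in the PBS libraries, with a PBS range that held all LPS values and a log2 fold change of -0.08 (SE 0.21, edgeR adjusted p = 0.885). Eif2ak3, the sensor PERK, had 18.02, 17.8 and 17.1 CPM in the LPS libraries, against 24, 21.6, 19.1, 14.5 and 18.6 CPM in the PBS libraries. LPS libraries of Eif2ak3 again lay inside the PBS range, at a log2 fold change of -0.16 (SE 0.19, edgeR adjusted p = 0.715), which was -0.36 without PBS s6, s11 and s16 and 0.015 without PBS s1 and s2. Ddit3, the factor CHOP of prolonged stress, had 27.6, 24.1 and 22.5 CPM in the LPS libraries, against 21.2, 27.7, 26.7, 27.98 and 21.8 CPM in the PBS libraries. The groups of Ddit3 overlapped fully, with a log2 fold change of -0.02 (SE 0.17, edgeR adjusted p = 0.972) and an interval of 2 SE on each side from -0.35 to 0.32. Herpud1 had 706, 559 and 604 CPM in the LPS libraries, against 549.7, 622, 611, 652 and 507 CPM in the PBS libraries, with LPS s4 highest and a log2 fold change of 0.08 (SE 0.14, edgeR adjusted p = 0.809).

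Other genes of the pathway, in lists chosen alongside, showed few calls. In the list of further oligosaccharyltransferase and membrane insertion genes, 0 of 21 were called by edgeR and by limma-voom (5 lower and 0 higher at an unadjusted p under 0.05, and 1 lower in DESeq2), with a median of -0.12. Magt1, a thioredoxin-like subunit of the Stt3b form, had 21.9, 13.6 and 17.8 CPM in the LPS libraries, against 30.3, 26.1, 32.3, 40.04 and 50.5 CPM in the PBS libraries, with every LPS library below every PBS library and a log2 fold change of -0.99 (SE 0.24, edgeR adjusted p = 0.0605). The next smallest p was that of Snd1, at -0.52 (SE 0.16, edgeR adjusted p = 0.127). Mouse Snd1 is a staphylococcal nuclease and tudor domain protein that shares only its symbol with a yeast ER targeting factor, and does not belong to this machinery. Without it the list had 20 genes, 0 called by edgeR and by limma-voom, 4 lower and 0 higher at an unadjusted p under 0.05, 1 lower in DESeq2, and a median of -0.06.

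Among 30 ER export genes, which pack cargo into vesicles, 1 was called lower and 0 higher by edgeR, by DESeq2 and by limma-voom. EdgeR called 0.569% of all genes lower. At an unadjusted p under 0.05, 6 of the 30 were lower and 0 higher, against 7.64% and 10.4% of all genes. The log2 fold change was below 0 for 26 of the 30, against 52.7% of all genes, with a median of -0.23. For 4 of the 30 every LPS library lay below every PBS library, against 5.86% of all genes. The called gene was Sec22b, a SNARE of the ER to Golgi step, with 37.7, 32.5 and 35.4 CPM in the LPS libraries, against 51.1, 52.6, 52.2, 67.5 and 63.9 CPM in the PBS libraries. All LPS libraries were below all PBS libraries, and Sec22b fell by 0.70 on the log2 scale (SE 0.15, edgeR adjusted p = 0.0367). The call on Sec22b was lost in edgeR without LPS s4 (adjusted p = 0.111), LPS s14 (0.158), LPS s18 (0.132), PBS s11 (0.0965) or PBS s16 (0.0538), and with library totals (0.0589).

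The lists of other folding genes (32 tested, median -0.14), ER-associated degradation (28 tested, median -0.05) and stress response (32 tested, median 0.07) had 0 genes called by edgeR, DESeq2 or limma-voom. At an unadjusted p under 0.05, 4 folding genes were lower and 2 higher, 0 degradation genes were lower and 1 higher, and 2 stress genes were lower and 2 higher. The smallest p belonged to Fkbp11, a prolyl isomerase of secretory cells, at -0.98 (SE 0.32, edgeR adjusted p = 0.136), and then Qsox1, a disulfide-forming oxidase, at 0.69 (SE 0.27, edgeR adjusted p = 0.198), in the folding list. In the degradation list they belonged to Dnajb14, a membrane co-chaperone, at 0.62 (SE 0.25, edgeR adjusted p = 0.215), and Edem2, a mannosidase, at 0.31 (SE 0.15, edgeR adjusted p = 0.304). In the stress list Eif2ak4, a kinase that senses amino acid lack, was at -0.64 (SE 0.21, edgeR adjusted p = 0.132) and Mbtps1, a protease that cuts ATF6, was at -0.32 (SE 0.12, edgeR adjusted p = 0.184).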

How the data were processed

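The deposited table, per the methods, holds UMI counts per gene as the authors made them with the User-friendly Transcriptome Analysis Pipeline from reads with unique mapping to gene 3′ ends (mm10, NCBI annotation release 109). The name of the aligner was not given in the sources used here. Raw counts of 8 libraries (3 LPS, 5 PBS) were used, and column names gave the group but not the replicate number. Another 16 columns of per-library values and the authors' columns of log2 fold changes and p-values were not used.

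Genes with 30 or more UMIs over the 8 libraries were tested with edgeR 4.0.16 in R 4.3.3 (quasi-likelihood test, TMM, no covariate), with p-values adjusted over 12661 genes by the method of Benjamini-Hochberg. Calls needed an adjusted p below 0.05 together with a fold change above 1.25. The script was tested on simulated data. CPM were scaled by TMM factors, and the SE was derived from the log2 fold change and the F statistic. DESeq2 1.42.0, limma-voom (limma 3.58.1), other scalings, other filters and leaving out libraries were tried as alternatives. Members named with values are called genes, the 3 with the smallest p per role, and the usual stress readouts. Canx, Ssr3, Sec11c, Rpn2, Stt3a, Stt3b and Srp72 were singled out after their values were seen. Members and lists were chosen with earlier results of these data known. Counts cover unique reads, so genes with near-identical copies may be undercounted. The labels call the libraries biological replicates, and the study counts as many mice. Its methods also describe pooling of samples for the libraries, and whether each library holds a single mouse was not found. The p-values therefore measure the spread between libraries. Promoter sequences and gene coordinates are from RefSeq (GRCm38).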

Additional observations from a re-analysis of the deposited data

Results flagged for a closer look

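Among 47 quantities checked in the 5 PBS libraries, 2 had a library far from the others, as chance alone gives in about 1 of 20. Srp9 had 86.9 CPM in PBS s6, whose nearest neighbour was 64.3 CPM, a gap of 0.815 of the group's range. Xbp1 had 211 CPM in PBS s16, whose nearest neighbour was 272 CPM, a gap of 0.757 of the range.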

How the results depend on the processing

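No paired analysis was possible because the column names carry no replicate number of the labels. Of 463 comparisons of the 29 named members with other settings, 437 kept direction and side of the threshold. Among these, 1 only dropped the fold threshold, without a refit. Only Ssr2 was called in the main fit, so any other member counted as kept where it stayed uncalled with the same sign. Members called lower numbered 1 with edgeR and 5 with DESeq2, and 0 to 2 when 1 library was left out (0 without LPS s4, s14 or s18 or PBS s11, 2 without PBS s1), while members called higher stayed at 0 to 0. Fits without PBS s1 and s2, and without PBS s6, s11 and s16, were chosen after seeing the data, and each called 3 lower, Sec61b, Ssr2 and Ostc in the first and Ssr2, Hspa5 and Canx in the second. Over all genes 72 were lower and 185 higher, against 191 and 369 with DESeq2, 42 and 170 with library totals, 381 and 527 without PBS s1 and s2, and 47 and 125 without PBS s6, s11 and s16. Leaving out 1 library gave 12 to 95 lower and 47 to 259 higher (lower 20 without LPS s14, 12 without LPS s18, 12 without LPS s4 and 20 without PBS s11, higher 78, 47, 48 and 71 for the same libraries). The members' median log2 fold change of -0.20 was -0.11 with library totals and -0.26 to -0.17 without 1 library. Their share, LPS minus PBS, of -0.0779 percentage points was -0.135 without the 5 most abundant genes and -0.0982 to -0.0580 without 1 library. Among the 29 named members, log2 fold changes changed sign for Atf6 (0.015) and Ddit3 (0.064) with library totals. They did so for Hspa5 (0.19), Sdf2l1 (0.38) and Eif2ak3 (0.015) without PBS s1 and s2, and for Spcs1 (0.22) and Ddit3 (0.024) without PBS s6, s11 and s16. Among the same 29, the ranges crossing 0 without 1 library were -0.31 to 0.17 for Sdf2l1, -0.18 to 0.076 for Atf6, -0.11 to 0.041 for Ddit3 and -0.016 to 0.16 for Herpud1. Members outside the 29 changed sign too, among them Ssr3 (0.058) and Sec11c (0.051) with library totals. Without PBS s6, s11 and s16 they included Srp14 (0.11) and Tram1 (-0.31). The cause was not tested. Depth limits Sec61g and Stt3a, whose values lie near 3 UMIs.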
